A study of Homo sapiens with 2 samples.

Results

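The miR-29 family is a set of microRNAs (miRNAs), short RNAs that guide Argonaute proteins to messenger RNAs and lower their output. Its guide strands hsa-miR-29a-3p, hsa-miR-29b-3p and hsa-miR-29c-3p (below without the prefix for human) were selected by name from a deposited count table, so the family makes up 3 of the 407 miRNAs measured. All 3 members had at least 200 reads in each of the 2 libraries, and no filter removed a member. The cells were BT549, an established human breast cancer line, with the genotype SNHG15-MS2 overexpression: they overexpressed the long non-coding RNA SNHG15 carrying MS2 hairpins, which the bacteriophage MS2 coat protein (MCP) binds. Lysate of these cells was held for 5 h at 4 °C on amylose resin coated with MBP-MCP, a fusion of MCP to maltose binding protein (the pulldown), or on amylose resin alone (the control), and the resin was washed 3 times before small RNA was sequenced. Both groups therefore carried the tagged SNHG15, and they differed in the coat protein on the resin. The question behind the comparison is which miRNAs associate with SNHG15. No library from MBP-MCP resin with cells lacking the tag was analysed here, so RNA held by the coat protein and RNA held through SNHG15 cannot be told apart.

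Each group held 1 library, so a difference could not be checked against replicates, and no p-value is given here for a difference between the resins other than those in the authors' deposited table. In all, 202560 miRNA reads came from the pulldown and 111414 from the control. Levels are given as reads per 1000000 miRNA reads of the library (RPM), which needs no length term because a read spans the whole miRNA. Intervals are exact 95% intervals (Poisson for a level, Clopper-Pearson for a ratio or a share) and cover counting error only. The labelled cell type was checked against marker miRNAs. Of 7 epithelial miRNAs, 2 had reads, with 1 read each in each library. Of 5 miRNAs typical of basal or mesenchymal breast lines 4 had reads, together 62426 RPM in the pulldown and 68860 RPM in the control. Most of that sum was miR-125b-5p, with 51234 and 58691 RPM, and miR-10b-5p of this list was not among the miRNAs measured. The listed markers of other cells were scarce. Of 6 blood miRNAs, 4 summed to 726 and 682 RPM, led by miR-486-5p with 133 and 62 reads. Of 4 fibroblast miRNAs, 2 summed to 449 and 709 RPM. The muscle miRNA miR-1-3p had 9 and 1 reads, the neuronal miR-124-3p 8 and 7, and the liver miRNA miR-122-5p 4 reads and 0. These lists are short, with 1 miRNA for neurons and none for endothelium, so they cannot show that such cells were absent. Some miRNAs outside the lists were abundant. Examples are miR-9-5p, known from neurons (5998 and 9703 RPM), and miR-126-3p, known from endothelium (1906 and 2486 RPM). Both are named after their values were seen. The part of other cells in the miR-29 values was not tested.

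miR-29 is best known as a brake on extracellular matrix: it represses collagen, elastin and fibrillin genes, and it is lost in fibrosis of many organs. It also represses the DNA methyltransferases DNMT3A and DNMT3B and the survival protein MCL1, and in breast cancer the luminal factor GATA3 induces miR-29b, which restrains metastasis. An miRNA finds its targets mainly through its seed, bases 2 to 8 from the 5′ end. The mature sequences of the 3 members, from RefSeq (GRCh38.p14), are shown because the whole comparison turns on RNAs that are nearly the same; capitals mark the seed.
miR-29a-3p: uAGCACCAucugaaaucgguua
miR-29b-3p: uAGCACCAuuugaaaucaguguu
miR-29c-3p: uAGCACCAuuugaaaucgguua
The seed AGCACCA was shared by all 3, and in the RefSeq table it occurred in these 3 mature miRNAs and no other. The first 9 bases were identical. Counted from 1 at the 5′ end, miR-29a-3p and miR-29c-3p differed by a single substitution, C10U, and were identical at 21 of 22 positions. miR-29b-3p carried the same C10U relative to miR-29a-3p, and G18A, U21G and A22U besides, and was 1 base longer. Uridines in the middle of miR-29b and miR-29c have been linked to faster decay than that of miR-29a.

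The tail of miR-29b-3p, shown with its last 6 bases in capitals, is the hexanucleotide known as a nuclear import signal.
miR-29b-3p: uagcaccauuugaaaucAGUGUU
Of 2370 human mature miRNAs in the RefSeq table, 2 (0.0844%) ended in AGUGUU, miR-29b-3p and miR-519e-3p. miR-29a-3p and miR-29c-3p end in CGGUUA instead. A read of miR-29a-3p with 1 wrong base can thus read as miR-29c-3p, and how the authors assigned reads that fit more than 1 member is not stated in the labels or file headers, so values of single members are uncertain to that extent.

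The family is encoded by hairpins on 2 chromosomes, in pairs. On chromosome 7, MIR29A (chr7:130876747-130876810) and MIR29B1 (chr7:130877459-130877539) lie on the minus strand of GRCh38 with 648 bases between them. In GENCODE 29, MIR29B1 lies within an exon of the lincRNA transcript LINC-PINT-202, and MIR29A sits at the 3′ end of that transcript; both are intronic in the lincRNA gene AC016831.6 on the same strand, and LINC00513 runs across them on the plus strand. On chromosome 1, MIR29C (chr1:207801852-207801939) and MIR29B2 (chr1:207802443-207802523) lie on the minus strand with 503 bases between them, both within an exon of MIR29B2CHG-203, a transcript of their lincRNA host gene. Mature miR-29b-3p is the same from MIR29B1 and MIR29B2, so its reads pool both loci, while miR-29a-3p and miR-29c-3p have 1 hairpin each.

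miR-29a-3p carried most of the family. Its reads numbered 2977 (pulldown) and 2003 (control), which is 14697 RPM (14174 to 15235) against 17978 RPM (17199 to 18783). It was the 10th most abundant miRNA of each library (rank 10 in both). miR-29b-3p had 337 and 245 reads, or 1664 RPM (1491 to 1851) in the pulldown and 2199 RPM (1932 to 2492) in the control. miR-29c-3p, the matrix repressor encoded beside MIR29B2, had 209 reads in each library, or 1032 RPM (897 to 1182) against 1876 RPM (1630 to 2148). Each member was lower in the pulldown than in the control, and for each the 2 intervals of the RPM level did not overlap. The same held for 14.3% of the 161 miRNAs that reached 20 reads in a library, most of them with fewer reads than the members. The order of levels was the same in both libraries, a above b above c. miR-29a-3p exceeded miR-29b-3p 8.83-fold in the pulldown and 8.18-fold in the control. miR-29b-3p exceeded miR-29c-3p 1.61-fold in the pulldown (1.35 to 1.93), whereas in the control these members did not differ beyond counting error (1.17-fold, 0.971 to 1.42).

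**Figure D1:**
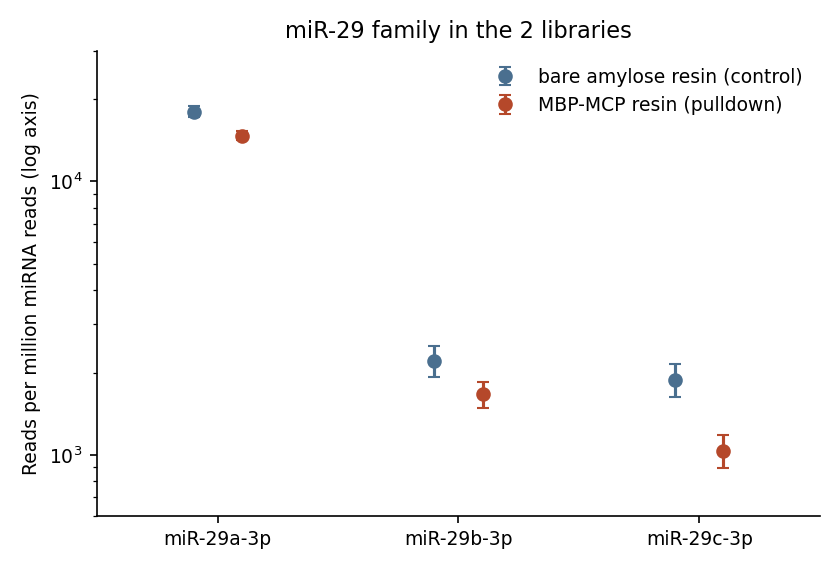
Level of each miR-29 guide strand in RPM (log axis) in the control library (blue) and the pulldown library (red); bars are exact 95% Poisson intervals, 1 library per group. The pulldown point lies below the control point for each member, most of all for miR-29c-3p (1032 against 1876 RPM).

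Summed over its members, the family took 1.74% of all reads in the pulldown (3523) and 2.21% in the control (2457). The ratio of these RPM values, pulldown over control, was 0.789 (0.749 to 0.831), a log2 ratio of −0.34. The members differed in how far they lay below 1. The ratio was 0.817 (0.772 to 0.866) for miR-29a-3p and 0.757 (0.640 to 0.896) for miR-29b-3p. It was 0.550 (0.452 to 0.669) for miR-29c-3p, a log2 ratio of −0.86 with an interval of −1.15 to −0.58. These are shares of sequenced miRNA. How much RNA each resin held was not analysed here, so fewer molecules on the MBP-MCP resin cannot be read from a lower share.

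Against the background of 161 miRNAs that reached 20 reads in a library, ratios below 1 were common: 60.2% of them had one. The interval lay wholly below 1 for 23.6% of these miRNAs and for 3 of the 3 members. The median ratio of the 161 was 0.897, and 11.2% had an interval wholly below that median, the 3 members among them. Most of the 161 had fewer reads than the members and so wider intervals. The 11.2% therefore understates how common such an interval was at the members' depth. By size, 14.9% of the 161 were at least 1.5-fold lower in the pulldown; miR-29c-3p was one of them and the other two members were not. At least 2-fold lower were 5 miRNAs (3.11%), none of the family: miR-9-3p and 4 numbered predictions, named here because they are the only ones below miR-29c-3p. Those 5 had under 50 reads in each library, though miR-9-3p came close with 40 in the pulldown and 49 in the control. Among the 105 miRNAs that reached 50 reads in a library, miR-29c-3p had the lowest ratio of all, while miR-29b-3p ranked 16th and miR-29a-3p 30th from the lowest. First place was not resolved by counting: the interval of the next lowest, miR-152-3p (0.595, 0.455 to 0.778), overlapped that of miR-29c-3p. Restricted to the 53 miRNAs that reached 200 reads in a library, 7.55% were at least 1.5-fold lower. These were miR-29c-3p, miR-27a-3p, miR-9-5p and miR-218-5p, of which all but miR-29c-3p are named after their values were seen. In that better counted set 37.7% had an interval wholly below 1, so an interval below 1 was no rarity at this depth.

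**Figure D2:**
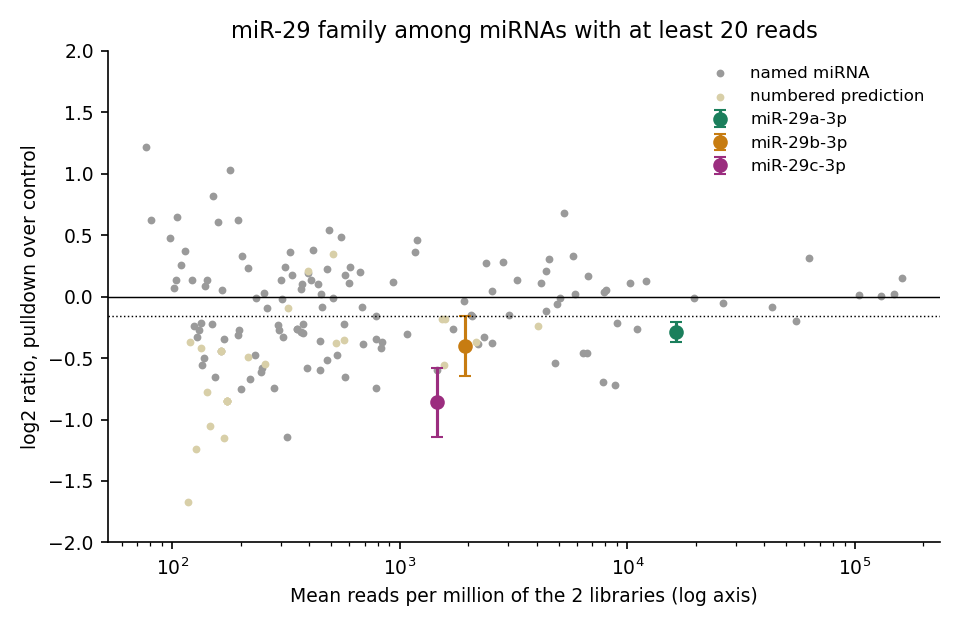
log2 ratio of RPM, pulldown over control, against the mean RPM of the 2 libraries (log axis) for miRNAs that reached 20 reads in a library; grey and sand points are named miRNAs and numbered predictions, coloured points with 95% counting intervals are the miR-29 members, the solid line is 0 and the dotted line the median of all 161. Of the 161, 2 predictions with a control value of 0 lie above the axis. The points below miR-29c-3p (−0.86) all lie to its left, among miRNAs with under 50 reads in each library.

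Comparing members with each other inside a library removes the library total, so these values do not depend on scaling. For every 100 reads of miR-29a-3p there were 7.02 reads of miR-29c-3p in the pulldown and 10.4 in the control, a ratio of ratios of 0.673 (0.548 to 0.826). miR-29c-3p was thus 1.49-fold lower in the pulldown relative to its single-substitution relative (interval 1.21 to 1.82). Relative to miR-29b-3p it was lower as well, with 62.0 reads per 100 in the pulldown and 85.3 in the control, a ratio of ratios of 0.727 (0.560 to 0.944). For miR-29b-3p against miR-29a-3p the numbers were 11.3 and 12.2 reads per 100, a ratio of ratios of 0.925 whose interval of 0.775 to 1.11 includes 1. The 3 intervals share reads and were not adjusted for their number. The make-up of the family shifted accordingly. miR-29a-3p was 84.5% (83.3 to 85.7) of the family's reads in the pulldown and 81.5% (79.9 to 83.0) in the control. miR-29b-3p was 9.57% (8.61 to 10.6) and 9.97% (8.81 to 11.2), and miR-29c-3p was 5.93% (5.18 to 6.76) and 8.51% (7.43 to 9.68).

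**Figure D3:**
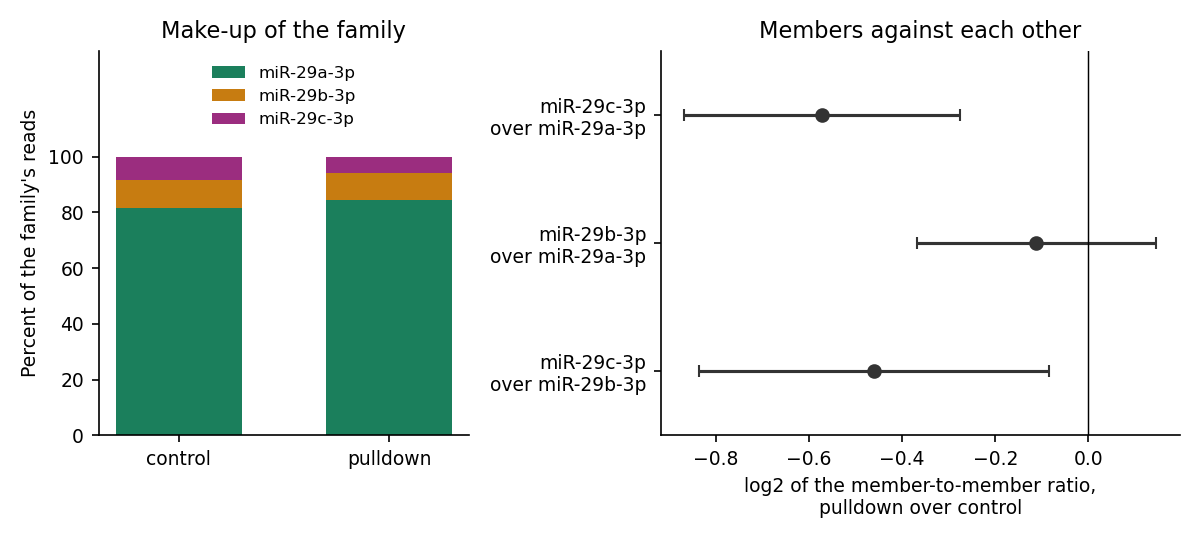
Left, percent of the family's reads from each member in the control and the pulldown library (stacked bars from 0 to 100). Right, log2 of the ratio between 2 members in the pulldown over that in the control, with exact 95% intervals and a line at 0; both intervals with miR-29c-3p on top of the ratio lie below 0, and that of miR-29b-3p over miR-29a-3p includes 0.

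The ratio of miR-29a-3p and miR-29b-3p to the rest of the library depended on how the libraries were scaled. Against total reads, every log2 ratio was 0.20 higher with TMM factors, 0.28 higher with DESeq2 size factors and 0.12 higher when the 5 most abundant miRNAs were left out of the totals. With DESeq2 size factors the log2 ratio of miR-29a-3p was −0.013 with an interval from −0.095 to 0.069, and with TMM factors it was −0.096 (−0.18 to −0.013). The interval of miR-29b-3p included 0 with TMM factors (−0.21, −0.45 to 0.036) and with DESeq2 size factors (−0.12, −0.37 to 0.12). miR-29c-3p stayed below 0 with its whole interval in each of the 6 other scalings, from −0.87 to −0.58. Set against the median of the 161 miRNAs instead, which moves with the scaling, the members lay at −0.13, −0.24 and −0.70 for a, b and c.

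**Figure D4:**
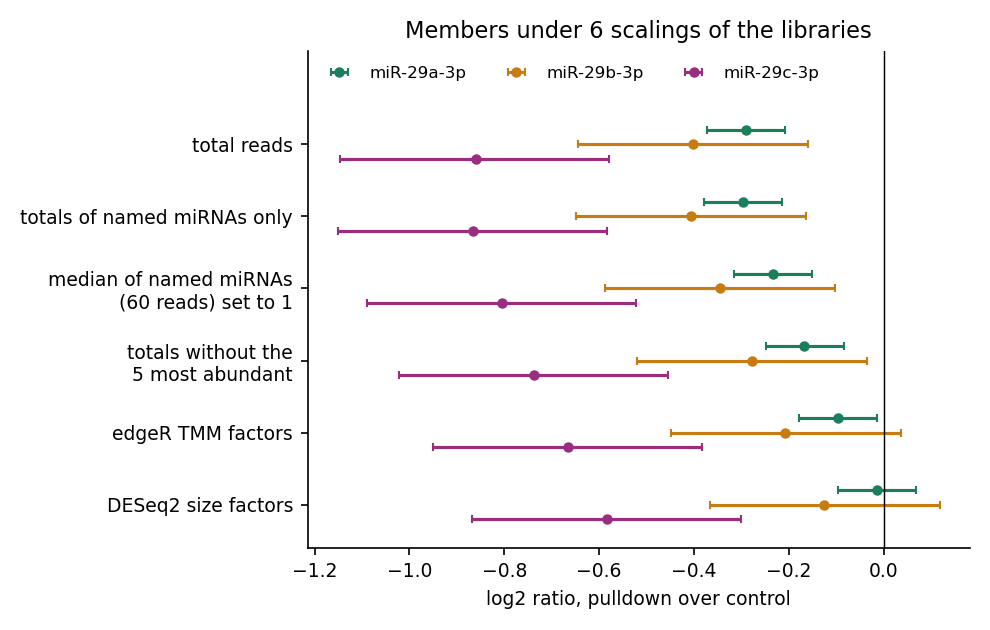
log2 ratio, pulldown over control, of the 3 members under 6 scalings of the libraries, with exact 95% counting intervals and a line at 0. The whole interval of miR-29c-3p lies left of 0 in each row, while miR-29a-3p reaches 0 under DESeq2 factors and miR-29b-3p under both TMM and DESeq2 factors.

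The opposite arms of the hairpins, which are mostly discarded when the guide strand enters Argonaute, were nearly absent. miR-29b-1-5p, the one arm specific to the chromosome 7 copy of miR-29b, had 10 reads in the pulldown and 6 in the control, a ratio of 0.917 with an interval of 0.302 to 3.07. miR-29a-5p had 1 read in each library. A difference between the resins was not detectable for these arms at this depth, and they do not show which locus supplied the reads of miR-29b-3p. miR-29b-2-5p and miR-29c-5p were not among the 407 miRNAs measured, so no value can be given for them.

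SNHG15 transcripts were searched on the transcript strand for TGGTGCT, the 7-base complement of the family's seed, in DNA letters. Of 10 SNHG15 transcripts in GENCODE 29, 2 held it, SNHG15-202 and SNHG15-206, once each and at the same genomic place, chr7:44985566-44985572 on the minus strand of GRCh38. It lies in exon 1 of 2 of SNHG15-202 and in exon 2 of 2 of SNHG15-206, both lincRNA transcripts, and is shown with its flanks because it is the one match of 7 bases; capitals mark the match.
SNHG15 site: ccagcagggacTGGTGCTta
The base after the match was T, so the longer match TGGTGCTA was not present. These 7 bases occurred in 8.68% of all 10066 lincRNA transcripts of 505 to 3116 bases, in 24.0% of 358 lincRNA transcripts within 10% of the length of SNHG15-202 (3116 bases) and in 7.69% of 767 near that of SNHG15-206 (1073 bases). The other 8 SNHG15 transcripts, 505 to 1039 bases long, did not hold these letters. The transcript in the MS2 construct is not stated in the labels, and a match of letters is a description of sequence and not of binding.

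The miRNAs closest to the family in seed were those of the miR-15/16 family, which represses BCL2 and cyclins. Of 357 named miRNAs 321 had a sequence in the RefSeq table, and 6 of them had a seed 1 base from that of miR-29. The substitution was C6G in each of the 6, giving AGCAGCA. Of the 4 with at least 20 reads in a library, miR-16-5p lay above 1 with a ratio of 1.11 (1.09 to 1.13). For miR-15b-5p, with 446 and 318 reads, it was 0.771 (0.667 to 0.894). The ratio of miR-15a-5p was 0.776 (0.544 to 1.11) and that of miR-424-5p 0.650 (0.398 to 1.07), and both intervals include 1. Near-identical seeds thus went with ratios on either side of 1 with total reads. Of these 4, 3 lay below 1, as the 3 miR-29 members did, and 1 of them had its whole interval below it. Only miR-16-5p lay above 1.

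Likeness in response was measured as distance in log2 ratio from the summed family among 63 other named miRNAs that reached 100 reads in a library. It rests on 1 ratio between 2 libraries. The 5 nearest were miR-98-5p (−0.35), miR-148b-3p (−0.33), miR-186-5p (−0.37), miR-15b-5p (−0.37) and let-7c-5p (−0.31), against −0.34 for the family. Named miRNAs of like abundance gave a second yardstick. Next to miR-29a-3p in mean RPM stood miR-93-5p, an oncogenic miRNA of the miR-17 group, with a ratio of 0.991 (0.940 to 1.04), and miR-125a-5p with 1.09 (1.02 to 1.17). Neither interval overlapped that of miR-29a-3p. Next to miR-29b-3p stood let-7d-5p with 0.978 (0.826 to 1.16) and miR-532-5p with 0.900 (0.765 to 1.06), whose intervals overlapped that of miR-29b-3p. Next to miR-29c-3p stood miR-218-5p with 0.659 (0.543 to 0.801), overlapping it, and miR-30c-5p with 0.834 (0.698 to 0.999), which did not.

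miRNAs that act on the same pathways as miR-29 were described by lists, beside a median log2 ratio of −0.16 over the 161 miRNAs of the background. Of 9 listed miRNAs that repress DNA methyltransferase or EZH2 genes, 8 had 20 reads in a library. Their median was −0.30, 7 of the 8 had a ratio below 1 and 3 an interval wholly below it, where 60.2% and 23.6% of the background did. Those 3 were miR-148b-3p (0.795, 0.683 to 0.926) and miR-152-3p (0.595, 0.455 to 0.778), both repressors of DNMT1, and miR-143-3p (0.635, 0.463 to 0.871). The EZH2 repressors of this list lay close to 1: 1.08 (0.960 to 1.21) for miR-26a-5p, 0.962 (0.8655 to 1.07) for miR-26b-5p and 0.901 (0.788 to 1.03) for miR-101-3p. Of 15 listed miRNAs of fibrosis and matrix, 6 had 20 reads in a library, with a median of −0.058, 2 intervals wholly below 1 (against the same 23.6%) and 1 above. In this list miR-21-5p, which promotes fibrosis where miR-29 restrains it, stood at 0.944 (0.912 to 0.978) on 8475 and 4937 reads. miR-155-5p, induced in inflammation, stood at 1.29 (1.03 to 1.62) on 265 and 113 reads. Of 8 listed repressors of MCL1, 5 had 20 reads, with a median of −0.15 and 1 interval wholly below 1 (against 23.6%), that of miR-125b-5p (0.873, 0.846 to 0.901). Scaling moves these values as it moves the members. With DESeq2 size factors a negative log2 ratio smaller in size than 0.28 turns positive. Among others, this takes in the medians of the fibrosis and MCL1 lists and the values of miR-21-5p, miR-125b-5p and miR-101-3p. The median of the 161 turns positive too (0.12), and since all values shift alike, each keeps its place relative to that median.

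**Figure D5:**
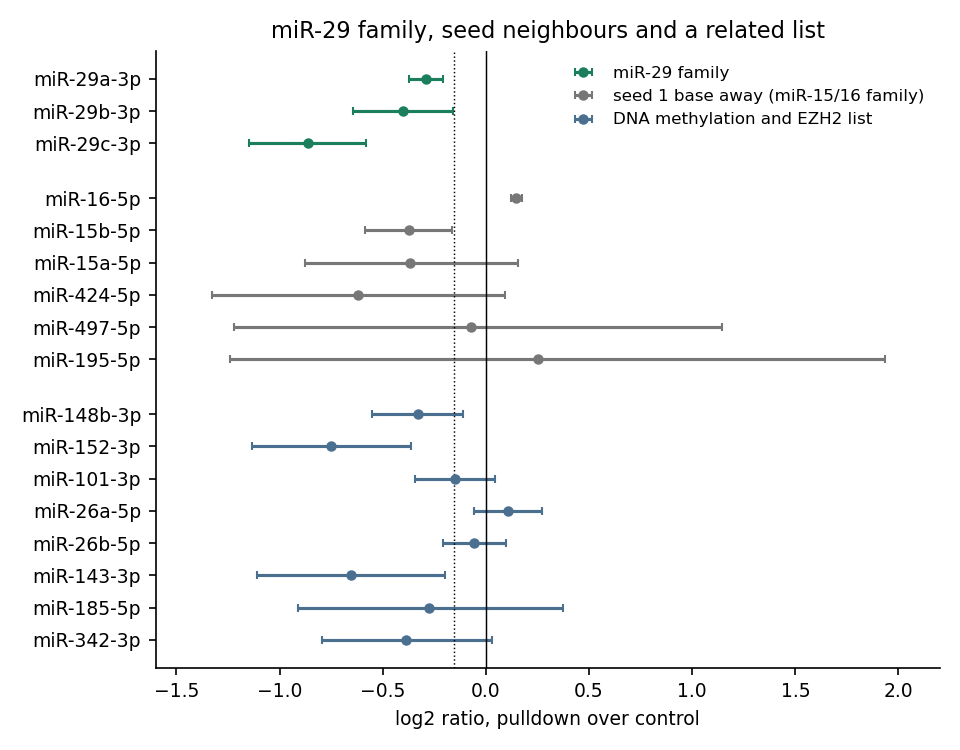
log2 of the RPM ratio, pulldown over control, with exact 95% counting intervals for the miR-29 members (green), the 6 measured miRNAs with a seed 1 base away (grey) and the 8 miRNAs of the DNA methylation and EZH2 list with at least 20 reads in a library (blue); the solid line is 0 and the dotted line the median of all 161 miRNAs. The green intervals all lie below 0, miR-16-5p lies above it, and most grey and blue intervals include it.

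The members were also low in G and C, which was set beside the ratio. GC content was 40.9% in miR-29a-3p, 34.8% in miR-29b-3p and 36.4% in miR-29c-3p, against a median of 45.5% over 85 of 95 named miRNAs with at least 50 reads that had a sequence. Of these, 33 had a GC content no higher than that of miR-29a-3p. Their median log2 ratio was −0.057, and 19 of the 33 had a ratio below 1. The 52 with a higher GC content had a median of 0.0032. Across the 85 miRNAs, which share both libraries, Spearman's coefficient between GC content and log2 ratio was 0.20, and 0.15 without the 3 members. The 3 members are among the 33. All 3 members start with U and are among the 55 of the 85 that do. The median log2 ratio was −0.16 for those 55 and 0.025 for the others. With a minimum of 100 reads the gap was smaller: −0.083 for 43 starting with U and −0.0088 for the others, among 62. The coefficient for GC content was larger at that minimum, 0.24, and 0.17 without the 3 members. The part of base composition in the miR-29 values was not tested.

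In the authors' deposited table none of the members is called, and 2.46% of the 407 miRNAs are called lower. The authors' deposited table gives miR-29c-3p a log2 fold change of −0.86, a p-value of 0.00793 and an adjusted p of 0.202 from edgeR, the 16th smallest p-value of the table. In the authors' deposited table p is 0.397 for miR-29b-3p (adjusted p 0.849) and 0.648 for miR-29a-3p (adjusted p 0.974). These p-values, recomputed with edgeR's exact test, TMM factors and a biological coefficient of variation fixed at 0.1, matched within 0.01 in log10 p for all 407 miRNAs. The spread between replicates behind them was therefore an assumed value, since 1 library per group gives none. The deposited log2 fold change of miR-29c-3p is that of the RPM values without TMM factors. With TMM factors its log2 ratio was −0.67. The calls did not follow the adjusted p. miR-9-3p, at a log2 fold change of −1.16, is called lower although its adjusted p is above that of miR-29c-3p. miR-92a-3p, at 0.68, is not called although its adjusted p is below it. Called miRNAs reached an adjusted p of 0.475 from edgeR (miR-34c-5p, log2 fold change −2.28). Each called miRNA had a log2 fold change larger in size than that of miR-29c-3p, the smallest being 1.05 (miR-92b-5p). The missing call of miR-29c-3p therefore goes with the size of its fold change and not with its adjusted p.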

How the data were processed

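Small RNA eluted from MBP-MCP amylose resin or bare amylose resin was sequenced in 1 library each; the kits were mirVana for RNA and QIAseq miRNA for libraries, per the labels' protocols. Per the submitters' processing notes the build was GRCh38. Not given in the sources used here are the aligner, the annotation release and how molecular identifiers and reads fitting several miRNAs were handled. Raw read counts were deposited by the authors for 407 miRNAs, 357 named and 50 numbered predictions. The deposited values headed Tpm are RPM with no length term; they imply totals of 202630 and 111453 reads, 70 and 39 above the sums of the counts used here. The log2 fold changes, p-values and adjusted p-values (edgeR, per the file headers and names) are the authors'. There were 0 columns of other samples, and 3 lists of called miRNAs were not used.

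From the counts, RPM ratios were computed with exact conditional Clopper-Pearson 95% intervals, and log2 ratios with 0.5 reads added per library in proportion to its size (Python 3.11.15, scipy 1.17.1). Ratios of ratios carry exact conditional odds ratio intervals. Alternatives were TMM factors (edgeR 4.0.16), DESeq2 1.42.0 size factors, other totals, a reference median, prior counts of 0 and 5, and other read minimums. Steps were tested on simulated data. Named were the members and their opposite arms, the 5 nearest miRNAs in log2 ratio, the 2 nearest each member in mean RPM, those with a like seed, and members of the pathway lists with 20 reads; exceptions are stated. The members and lists were chosen with earlier results of these data known. Sequences are from RefSeq (GRCh38.p14) and GENCODE 29; all 3 members matched.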

Additional observations from a re-analysis of the deposited data

How the results depend on the processing

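No member changed sign under the 8 alternatives tried for each. Several of these could hardly change a sign: both prior counts, the totals implied by the authors' RPM, and totals of named miRNAs (a shift of −0.0054). The outcome therefore rests on the other scalings. The log2 ratio of miR-29a-3p, −0.29 with total reads, became −0.096 with TMM factors, −0.013 with DESeq2 size factors and −0.17 with totals without the 5 most abundant miRNAs. That of the summed family, −0.34, became −0.15, −0.065 and −0.22 in the same order. That of miR-29b-3p, −0.40, became −0.12 with DESeq2 size factors. miR-29c-3p ranged from −0.87 to −0.58, within its interval. These moves follow from the scaling itself, which shifts all miRNAs alike. Prior counts of 0 and 5 left every member and every member-to-member ratio within its interval, as did totals implied by the authors' RPM, an alternative chosen after seeing the data.

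The number of miRNAs at least 1.5-fold lower in the pulldown, 24 of 161, was 12 with TMM factors, 11 with DESeq2 size factors and 14 among named miRNAs only, and 44, 8 and 5 with read minimums of 10, 50 and 100 in a library; miR-29c-3p was the one member counted in each, with DESeq2 size factors only by a tie at the threshold, since it was then 1.5-fold lower with no prior count. The number at least 2-fold lower, 5, was 2 with TMM factors, 2 with DESeq2 size factors, 1 among named miRNAs only, and 21, 0 and 0 with the same minimums, with no member among them. No paired analysis was possible because each group has 1 library. Depth limits the opposite arms, with at most 10 reads. The spread between pulldowns is unknown with 1 library per resin.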
